A study of Mus musculus with 5 samples.

Results

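Eph receptors and ephrins, semaphorins and plexins are cell-surface families through which neighbouring cells attract, repel and sort from each other. The genes described here are all protein-coding mouse genes whose symbols place them in these families: 14 Eph receptors, 8 ephrins, 20 semaphorins of classes 3 to 7 and 9 plexins, 51 of the 52029 genes in the shared table. All 51 were also present in the separate table of the third co-culture library. They were followed in hepatobiliary organoids, self-renewing epithelial cultures that were here started from primary liver stem/progenitor cells of wild-type mice. The 2 samples of organoids alone were at passage 1, and the 3 samples of organoids co-cultured with liver endothelial cells (LiECs) were at passage 8, all taken at day 10. Co-culture and passage therefore changed together, and their parts in any difference cannot be told apart. Every culture received EGF, heparin, ECGS, nicotinamide, serum replacement and Y-27632, a kinase inhibitor. Whether the samples of a group are separate cultures is not stated in the labels; the p-values reflect the spread among the libraries, which may be technical.

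Eph receptors are tyrosine kinases that bind ephrins on adjacent cells. Ephrin-A ligands are held in the membrane by a lipid anchor and mostly bind EphA receptors, and ephrin-B ligands span the membrane and mostly bind EphB receptors, so that both cells can receive a signal on contact. Semaphorins are secreted (class 3) or held in the membrane (classes 4 to 7), and plexins are their receptors, with neuropilins as co-receptors for most class 3 members. In epithelia these families take part in boundary formation, migration and branching, and in blood vessels ephrin-B2, EphB4, plexin-D1 and semaphorin 3E guide vessel identity and growth.

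Of the 4 libraries in the shared table, M11 and M12 were organoids alone, with 26466724 and 29195305 counts, and M9 and M10 were co-cultures, with 33881583 and 35878185. The third co-culture library held 58853737 counts in a table with another gene annotation, so it is given as values without a test. Epithelial markers were abundant in every library, with Epcam between 515.7 and 732.1 CPM (counts relative to the library total, scaled by the TMM method over the 5 libraries, as are all CPM values here). Defining endothelial markers were near 0 in every library, with Pecam1 at most at 0.168 CPM and Cdh5 at most at 0.318 CPM, both in the third co-culture library. The 20 endothelial genes summed to 23.4 and 15.9 CPM in the organoids alone and to 14.3, 13.5 and 8.58 CPM in the co-cultures. Sox17 supplied 12.8 and 4.51 CPM of the sums of M11 and M12, and without it, a choice made after seeing the data, the sums were 10.6 and 11.4 CPM for M11 and M12, 12.6 and 12.9 CPM for M9 and M10 and 8.58 CPM for the third library. Egfl7 supplied most of each of these sums without Sox17, at 6.89 and 7.47 CPM for M11 and M12 and 9.48 and 9.59 CPM for M9 and M10. In the third library Egfl7 was at 5.33 CPM. Of the 20 genes, Clec4g had 0 counts in all 5 libraries and Cldn5 in the 4 of the shared table. In whole-culture RNA, fewer cells of a type and less RNA per cell cannot be told apart.

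A low-count filter kept 41 of the 51 genes for testing. The 10 others were Epha3, Epha5, Epha6, Epha8, Epha10, Ephb1, Plxnc1, Sema3a, Sema3g and Sema5b, none of which had more than 12 counts in any library of the shared table. Epha6 and Epha10 had 0 counts in all 5 libraries. Among those tested, the quasi-likelihood test of edgeR, adjusted by Benjamini-Hochberg over 15899 genes, called 1 gene higher in M9 and M10 than in the organoids alone, Efna3, and 1 gene lower, Sema5a, at an adjusted p under 0.05. Over all genes tested, 0.994% were called higher and 1.25% lower. At an unadjusted p under 0.05, 8 of the 41 genes were higher and 5 lower, against 8.42% higher and 9.06% lower of all genes. The median log2 fold change of the 41 genes was 0.06 and that of all genes 0.00, with 23 of the 41 positive. The call count rests on the libraries used: with all 5 libraries, edgeR called 0 of these genes and 2 of all genes. At an unadjusted p under 0.05 these were 10 and 1419. Leaving out 1 library also changed the count of calls, over all genes as well as over these families.

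**Figure D1:**
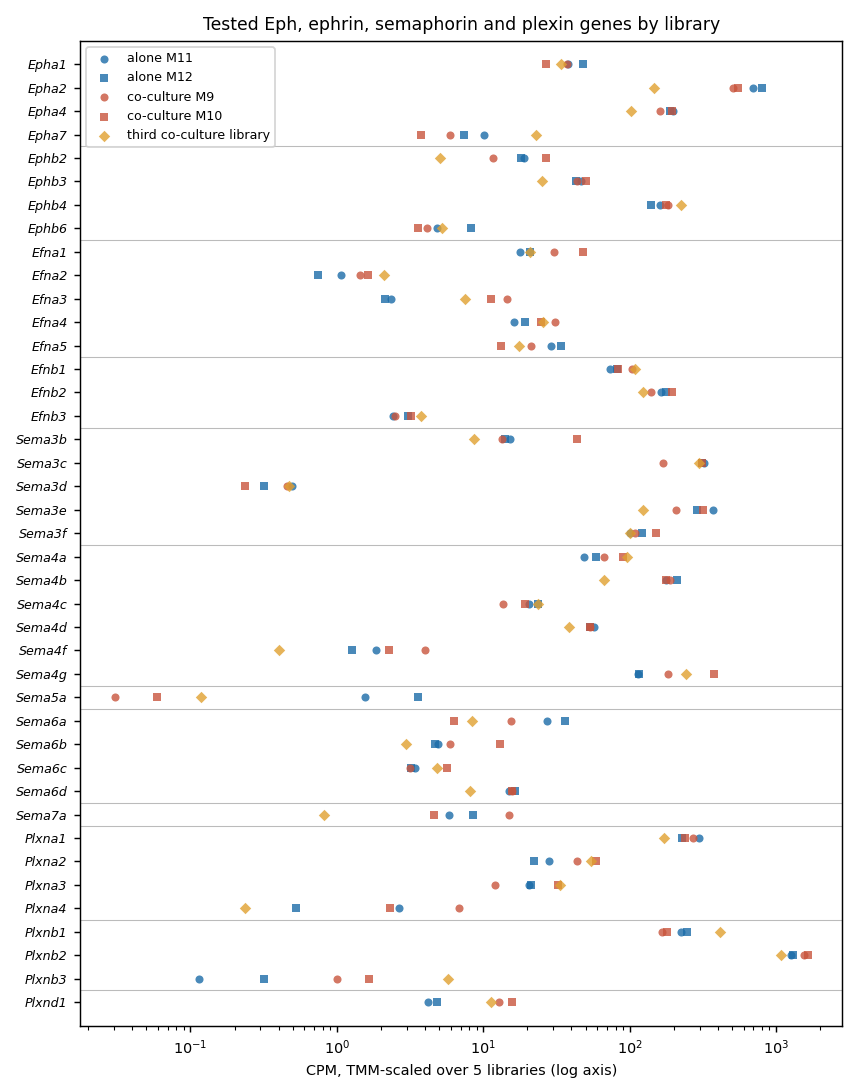
CPM on a log axis for the 41 tested genes, in rows grouped by family, with blue points for the 2 libraries of organoids alone, red points for co-culture libraries M9 and M10 and yellow diamonds for the third co-culture library. Plxnb2 and Epha2 lie furthest to the right, and Efna3, Plxnd1 and Sema5a show a gap between the blue points and all co-culture points.

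Levels of different genes can be compared only per transcript length, for which CPM was divided by the kilobases covered by a gene's exons in GENCODE M21. Plxnb2, a receptor for class 4 semaphorins, was at 163.5, 169.4, 199.6 and 212.9 CPM per kb in M11, M12, M9 and M10. Epha2, an ephrin-A receptor of epithelia, was at 149.3, 172.1, 108.0 and 117.3 CPM per kb. The ranges of these most abundant genes overlapped, with Epha2 slightly above Plxnb2 in M12 and below it in the others. Far below them, and each with a range that overlapped that of the next in order, came Sema3c (23.7 to 44.9 CPM per kb), Ephb4 (30.05 to 39.2), Sema4b (31.1 to 37.2), Sema3e (22.2 to 40.1), Plxna1 (25.05 to 32.7), Efnb1 (21.4 to 29.9), Efnb2 (20.5 to 28.4) and Sema3f (19.2 to 29.3). In the third co-culture library Plxnb2 was first at 138.7 CPM per kb, followed by Ephb4 at 48.3, Plxnb1 at 42.8, Sema3c at 41.9, Efnb1 at 31.6 and Epha2 at 31.5. Epha2 made up 65.2% and 69.2% of the summed Eph receptor level per length in M11 and M12, 58.1% and 59.5% in M9 and M10, and 28.9% in the third library.

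Among the EphA receptors, 4 of 9 were tested, all 4 had negative fold changes in M9 and M10 and none was called. Epha2 stood at 697.8 and 804.4 CPM in M11 and M12, at 504.7 and 548.2 CPM for M9 and M10 and 147.2 CPM in the third library. All 3 co-culture libraries lay below both libraries of organoids alone, the third far below the others. M9 and M10 differed from M11 and M12 by -0.52 ± 0.15 on the log2 scale (SE; edgeR adjusted p = 0.173), and the third library lay 2.35 below the mean log2 level of the organoids alone (log2 difference -2.35, no test). Epha4, which binds both ephrin classes, stood at 196.9 and 187.8 CPM without LiECs (M11 and M12) against 161.4, 194.1 and 101.6 CPM in co-culture, so that its groups overlapped (-0.12 ± 0.16, adjusted p = 0.772). Epha1 was lower in all 3 co-culture libraries, at 37.0, 26.9 and 33.95 CPM against 38.0 and 47.7 CPM, but M9 and M11 nearly met. Epha7 split the co-cultures: it was at 10.1 and 7.33 CPM without LiECs, 5.92 and 3.74 CPM for M9 and M10 and 22.7 CPM in the third library.

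Of the EphB receptors, 4 of 5 were tested and none was called. Ephb4, the main partner of ephrin-B2, was at 161.3 and 139.4 CPM without LiECs against 181.9, 175.6 and 224.3 CPM in co-culture. Its 3 co-culture values were all above both others, by a small margin (log2 fold change for M9 and M10 0.25 ± 0.15, adjusted p = 0.485, edgeR). Ephb3 was at 46.6 and 43.2 CPM without LiECs against 43.4, 50.5 and 25.1 CPM in co-culture, with no common direction (0.06 ± 0.17, adjusted p = 0.897). Ephb2 had its highest and lowest values within the co-cultures, at 11.7, 27.0 and 5.06 CPM, around the 18.8 and 18.1 CPM of the organoids alone. Ephb6, which lacks kinase activity, was at 4.85 and 8.17 CPM without LiECs against 4.13, 3.56 and 5.23 CPM in co-culture.

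All 5 ephrin-A genes were tested, of which 4 had positive fold changes, and Efna3 was called higher. Efna3 had 62 and 60 counts in M11 and M12 and 480 and 381 in M9 and M10. These were 2.35 and 2.11 CPM without LiECs, 14.6 and 11.3 CPM for M9 and M10 and 7.51 CPM in the third library. The 2 libraries of organoids alone were close to each other, and every co-culture library was well above them. M9 and M10 differed from M11 and M12 by 2.53 ± 0.32 on the log2 scale (SE; edgeR adjusted p = 0.0272), or 5.79-fold, and the third library lay 1.73 above the mean log2 level of the organoids alone. The call was lost without M11 (adjusted p = 0.162), without M12 (0.25) and with all 5 libraries (0.26), while the log2 fold change in these fits was 2.61, 2.46 and 2.32. It was kept by DESeq2 and by limma-voom (adjusted p = 0.0367).

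Efna1 and Efna4 lie on either side of Efna3 on chromosome 3 of GRCm38, all on the minus strand: Efna1 from 89271733 to 89281142, Efna3 from 89313899 to 89322965 and Efna4 from 89333390 to 89338028, a span of 66.3 kb. Efna1, a ligand of EphA2, was at 17.9 and 20.8 CPM without LiECs, 30.6 and 48.2 CPM for M9 and M10 and 20.9 CPM in the third library, close to M12. Its log2 fold change for M9 and M10 was 1.02 ± 0.27 (SE; adjusted p = 0.13, edgeR). Efna4 was at 16.2 and 19.2 CPM without LiECs against 30.8, 24.7 and 25.7 CPM in co-culture, with all 3 co-culture libraries above both others. Its log2 fold change was 0.65 ± 0.22 (adjusted p = 0.221). Within 100 kb of the start of Efna3, 16 other genes were tested, and edgeR called 0 of them (1 at an unadjusted p under 0.05, Dpm3, named after its values were seen, at 0.84 ± 0.24). Their median log2 fold change was 0.09. Adam15, a membrane protease, was at 0.03 ± 0.18 and Slc50a1, a sugar transporter, at 0.11 ± 0.17. Efna3 and Efna4 each overlap an antisense gene. The one in Efna3, Gm15998, had 18 and 15 counts alone and 7 and 29 in M9 and M10, fewer than Efna3 in every library. Without a stated strand setting, reads of such pairs cannot be told apart.

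**Figure D2:**
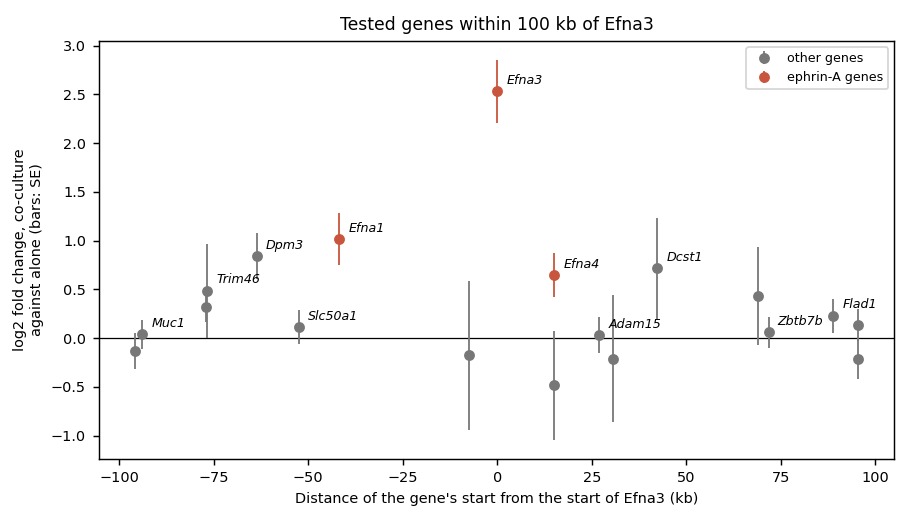
Log2 fold change of M9 and M10 against organoids alone (vertical axis; bars are standard errors) for the 19 genes tested within 100 kb of Efna3, placed by the distance of their starts from that of Efna3 in kb, with ephrin-A genes in red. Efna3 stands at 2.53, Efna1 at 1.02 and Efna4 at 0.65, and the other 16 genes lie between -0.48 and 0.84.

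The sequences just before the starts of these 3 neighbours are shown because the genes lie together and had fold changes of one sign, with that of Plxnd1 and Sema5a, described further on, for comparison. Ephrin-A1 and ephrin-A3 have been described as hypoxia-responsive in other cells, so the windows were searched on both strands for ACGTG and GCGTG, the core of the element bound by hypoxia-inducible factors. Each window holds the 250 bases before the RefSeq start in GRCm38.p6, read 5′ to 3′ on the gene's strand, and capitals mark matches, which overlap no other match here. Where RefSeq gives several starts, the start nearest to the annotated gene start was used.
Efna3, chr3:89322940-89323189, minus strand: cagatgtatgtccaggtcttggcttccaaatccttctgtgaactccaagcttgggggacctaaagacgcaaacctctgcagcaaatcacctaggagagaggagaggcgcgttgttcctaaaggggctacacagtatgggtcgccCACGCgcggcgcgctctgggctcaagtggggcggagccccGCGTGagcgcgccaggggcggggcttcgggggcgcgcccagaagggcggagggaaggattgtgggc
Efna1, chr3:89280952-89281201, minus strand: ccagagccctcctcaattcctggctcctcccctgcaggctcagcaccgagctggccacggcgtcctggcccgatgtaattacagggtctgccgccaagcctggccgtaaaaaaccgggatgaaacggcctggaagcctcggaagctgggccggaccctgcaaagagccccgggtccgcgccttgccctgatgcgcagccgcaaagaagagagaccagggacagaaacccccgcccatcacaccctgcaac
Efna4, chr3:89338029-89338278, minus strand: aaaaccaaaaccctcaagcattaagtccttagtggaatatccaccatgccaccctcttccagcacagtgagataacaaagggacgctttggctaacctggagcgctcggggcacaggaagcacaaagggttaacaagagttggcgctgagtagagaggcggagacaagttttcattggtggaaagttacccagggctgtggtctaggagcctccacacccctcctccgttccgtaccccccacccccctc
Plxnd1, chr6:115995006-115995255, minus strand: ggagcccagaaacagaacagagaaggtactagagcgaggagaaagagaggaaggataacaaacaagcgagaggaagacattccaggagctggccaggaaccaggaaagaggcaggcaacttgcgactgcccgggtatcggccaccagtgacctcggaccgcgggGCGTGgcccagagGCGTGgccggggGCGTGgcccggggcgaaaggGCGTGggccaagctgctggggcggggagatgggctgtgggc
Sema5a, chr15:32244563-32244812, plus strand: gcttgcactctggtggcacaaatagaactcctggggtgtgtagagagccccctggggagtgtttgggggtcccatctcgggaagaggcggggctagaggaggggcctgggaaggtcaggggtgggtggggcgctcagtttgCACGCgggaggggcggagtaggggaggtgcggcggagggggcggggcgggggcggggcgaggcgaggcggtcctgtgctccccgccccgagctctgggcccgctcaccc

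The Efna3 window held 2 matches (and that of its other RefSeq start 3), that of Plxnd1 held 4 and that of Sema5a held 1, while those of Efna1 and Efna4 held 0. Of other genes above both libraries alone in all co-cultures, Sema4g held 2, Efnb1 and Plxna2 1 each, and Efna2, Ephb4, Plxnb3 and Sema4a 0. Of those below in all, Efna5 held 3, Epha2 2 and Epha1 0, and Sema6a had no window. Epha8, which was not tested, held 6. Over all 32851 promoter windows in the RefSeq table, 38.6% held at least 1 match, 16.7% at least 2 and 2.58% at least 4. Of the 45 Eph, ephrin, semaphorin and plexin genes with a window, 22 held a match, or 48.9%. The searched words contain the pair CG, of which the median over all windows was 6, at 52.4% G or C. The windows of Efna3, Plxnd1, Sema5a and Efna1 held 19, 16, 17 and 16 such pairs, and that of Efna4 held 7. Base composition was not matched in these shares. A match is a stretch of letters, and whether any factor was bound there was not measured.

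Of the remaining ephrins none was called. Efna5, alone among the ephrin-A genes in having a negative fold change, was at 29.0 and 33.7 CPM without LiECs against 21.1, 13.3 and 17.5 CPM in co-culture, so that its groups did not overlap (log2 fold change for M9 and M10 -0.87 ± 0.28, SE; adjusted p = 0.199, edgeR). Efna2 was low everywhere, between 0.74 and 2.095 CPM, with all co-culture values above both others. Efnb1 was at 73.8 and 81.7 CPM without LiECs against 103.2, 83.1 and 109.2 CPM in co-culture, with M10 barely above M12 (0.26 ± 0.18, adjusted p = 0.531). Efnb2 was at 163.7 and 176.3 CPM without LiECs against 140.3, 195.0 and 123.9 CPM in co-culture, so that the organoids alone lay inside the range of the co-cultures (-0.02 ± 0.19, adjusted p = 0.968). Efnb3 stayed between 2.42 and 3.77 CPM.

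The secreted class 3 semaphorins included 5 tested genes of 7, none of which was called. Sema3e, which binds plexin-D1 without a neuropilin, was at 372.1 and 289.9 CPM without LiECs against 206.1, 318.2 and 123.7 CPM in co-culture (log2 fold change for M9 and M10 -0.34 ± 0.25, SE; adjusted p = 0.557, edgeR). M10 lay between the libraries of organoids alone, and the other co-cultures lay below them. Sema3c was at 320.9 and 311.5 CPM without LiECs, and of the co-cultures M10 at 313.4 and the third library at 299.3 CPM were close to these, whereas M9 was at 169.3 CPM. Sema3f, a ligand that uses neuropilin-2, ranged from 99.7 to 120.9 CPM without LiECs and from 100.4 to 152.1 CPM in co-culture. Sema3b was set apart by M10, at 43.8 CPM against 8.61 to 15.2 CPM in all other libraries.

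Plxnd1, the receptor of semaphorin 3E, was at 4.17 and 4.79 CPM without LiECs, 12.8 and 15.8 CPM for M9 and M10 and 11.3 CPM in the third library. Every co-culture value was more than 2 times the highest value of the organoids alone. The log2 fold change for M9 and M10 was 1.67 ± 0.28 (SE), and the adjusted p of 0.0506 (edgeR) fell just outside the threshold. The adjusted p was under the threshold with DESeq2 (1.05e-05) and in edgeR without a scaling factor (0.048), without a low-count filter (6.85e-04) and with at least 1 CPM in 2 libraries (0.0484). It was above the threshold with limma-voom (0.059) and in edgeR with RLE scaling (0.0506) and with all 5 libraries (0.276). The log2 fold change was 1.82 without M9, 1.52 without M10, 1.58 without M11 and 1.77 without M12. Plexin-D1 is best known from endothelium. Pecam1 had 1 and 2 counts in M11 and M12, 2 and 2 in M9 and M10 and 10 in the third library, and Cdh5 had 3 and 2, 6 and 5, and 19. The summed endothelial level was lower in M9 and M10 than in M11 and M12 with Sox17 and higher without it. The higher sum rested on a single gene, Egfl7, at 6.89 and 7.47 CPM against 9.48 and 9.59 CPM. The part of endothelial cells in the Plxnd1 levels was not tested.

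Class 4 semaphorins, membrane ligands mostly of plexin-B receptors, had 6 tested members, none of them called. Sema4g was at 114.4 and 116.0 CPM without LiECs, 182.1 and 375.5 CPM for M9 and M10 and 240.3 CPM in the third library. Its libraries of organoids alone were nearly equal and all co-culture libraries lay above them, spread widely among themselves (log2 fold change for M9 and M10 1.27 ± 0.33, SE; adjusted p = 0.131, edgeR). The log2 fold change of Sema4g was 1.70 without M9, 0.67 without M10, 1.27 without M11 and 1.28 without M12. With all 5 libraries it was 1.21 and not called (adjusted p = 0.382, edgeR). Sema4a was at 48.7 and 59.2 CPM without LiECs against 66.4, 90.5 and 95.8 CPM in co-culture, again without overlap (0.53 ± 0.21, adjusted p = 0.269). Sema4b was at 175.5 and 209.7 CPM without LiECs against 189.2 and 176.3 CPM in M9 and M10, whereas the third library was at 66.2 CPM. Sema4d, the ligand of plexin-B1, was steady at 53.2 to 56.7 CPM in the 4 libraries of the shared table and at 38.3 CPM in the third. Sema4c, a ligand of plexin-B2, was below the organoids alone in M9 and M10 (13.6 and 19.3 against 20.6 and 23.6 CPM) and at 23.7 CPM in the third library.

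Sema5a, a transmembrane semaphorin that binds plexin-B3, was called lower. It had 41 and 102 counts in M11 and M12, 1 and 2 in M9 and M10, and 7 in the third library. In CPM these were 1.55 and 3.59 alone and 0.0304, 0.0594 and 0.117 in co-culture. M12 was higher than M11, and every co-culture library was far below both. Summed over libraries, 143 counts alone against 3 in M9 and M10 gave a ratio per total count of 59.7, with an exact binomial 95% interval from 20.03 to 293 that covers counting error only. The edgeR fold change, -5.72 ± 0.80 on the log2 scale (SE; adjusted p = 0.0333), depends on the prior count, and Sema5a passed the filter only through the libraries where it was high. The call was lost without M11 (adjusted p = 0.0678), without M12 (0.225, at -4.99 on the log2 scale), with all 5 libraries (0.207) and with limma-voom (0.0561). Sema5a also overlaps an antisense gene, 4930465K09Rik. The summed marker levels of several other cell types were lower in M9 and M10 as well, but not every marker fell. The 16 mesenchymal genes summed to 70.1 and 153.1 CPM in M11 and M12, 35.0 and 41.3 CPM in M9 and M10 and 19.3 CPM in the third library. Reln accounted for most of the co-culture sum in M9 (28.0 CPM) and M10 (34.9 CPM). It was the 1 tested gene of this list that rose, from 10.1 and 14.3 CPM without LiECs. Its log2 fold change was 1.36, and it was not called. Of 10 tested, 4 were called lower (Cdh2, Rgs5, Col3a1 and Col6a3), against 1.25% of all genes, but 4 of the 10, Col3a1 and Col6a3 among them, reached the filter level in the organoids alone only. The 12 hepatocyte genes summed to 920.4 and 1902 CPM, 564.4 and 543.7 CPM, and 1733 CPM, with Alb, Trf and Hp called lower of 8 tested. Another 3 of the 8 rose without being called: Ttr by 1.01, Apoa1 by 2.74 and Hnf4a by 0.30 on the log2 scale. Hnf4a accounted for most of the co-culture sum in M9 (427.1 CPM) and M10 (314.9 CPM). The 11 macrophage and leukocyte genes summed to 684.5 and 603.1 CPM, 322.5 and 294.0 CPM, and 424.2 CPM, with Cd14 and Lyz2 called lower of 5 tested. The other 3 tested had positive fold changes, with a median of 0.21 for the 5. Cd14 supplied most of these sums, at 640.2 and 565.9 CPM, 284.5 and 232.7 CPM, and 339.4 CPM. Alb, Fga, Fgb and Lyz2 likewise reached the filter level in the organoids alone only, whereas Apoa1 reached it in M9 and M10 only. The part of these cell types in the Sema5a result was not tested.

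Plxnb3, the receptor of semaphorin 5A, had 3 and 9 counts alone, 33 and 56 in M9 and M10, and 345 in the third library. At 0.114 and 0.317 CPM without LiECs against 1.002, 1.66 and 5.78 CPM in co-culture, its groups did not overlap, and the direction was opposite to that of Sema5a. M9 and M10 differed from M11 and M12 by 2.59 ± 0.69 on the log2 scale (SE; edgeR adjusted p = 0.136). With 1 library left out, this log2 fold change ranged from 2.06 without M11 to 3.50 without M12. With all 5 libraries it was 3.69 and not called (adjusted p = 0.416, edgeR). DESeq2 (adjusted p = 0.0732) and limma-voom (0.146) did not call Plxnb3, and edgeR without a low-count filter did (0.0216). Here too the filter was passed only in the group where the gene was high, and the counts alone were small. In total, 2 of the 41 tested genes, Plxnb3 and Sema5a, passed in this way.

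Among the class 6 semaphorins, all 4 were tested and none was called. Sema6a, a ligand of plexin-A2 and plexin-A4, was at 27.2 and 36.2 CPM without LiECs, 15.5 and 6.35 CPM for M9 and M10 and 8.31 CPM in the third library, without overlap. Its log2 fold change for M9 and M10 was -1.54 ± 0.45 (SE; adjusted p = 0.161, edgeR), and it was -2.32 without M9 (adjusted p = 4.52e-04), -1.02 without M10 (0.0383), -1.73 without M11 (0.415) and -1.31 without M12 (0.648). Sema6b stood at 4.92 and 4.69 CPM without LiECs, at 5.95 and 13.1 CPM in the other libraries of the shared table and at 2.95 CPM in the third, so that its extremes were both co-cultures. Sema6d, a ligand of plexin-A1, was at 15.04 to 16.4 CPM in the 4 libraries of the shared table and at 8.09 CPM in the third. Sema6c stayed between 3.16 and 5.64 CPM. Of the other tested genes, Sema3d had at most 28 counts in a library, Sema4f lay between 0.402 and 3.98 CPM and Plxna4 between 0.235 and 6.80 CPM, none of them called. Sema7a, the lipid-anchored ligand of plexin-C1, had its extremes within the co-cultures, at 14.9, 4.63 and 0.821 CPM, against 5.80 and 8.49 CPM alone. Plxnc1 itself had between 1 and 6 counts in every library.

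The 4 plexin-A genes, receptors of class 3 semaphorins with neuropilins and of class 6 semaphorins directly, were all tested and none was called. Plxna2 was at 28.2 and 22.0 CPM without LiECs, 44.0 and 58.4 CPM for M9 and M10 and 54.3 CPM in the third library. All co-culture libraries were above both others, opposite to Sema6a, with a log2 fold change for M9 and M10 of 1.02 ± 0.23 (SE; adjusted p = 0.0898, edgeR). DESeq2 called it (adjusted p = 0.00406), but limma-voom (adjusted p = 0.1035) and edgeR with all 5 libraries (0.263) did not. Its log2 fold change was 1.22 without M11, 0.86 without M12, 1.22 without M9 and 0.82 without M10. Plxna1, the most abundant plexin-A gene per length, was at 296.3 and 226.8 CPM without LiECs against 269.2, 237.4 and 172.1 CPM in co-culture (-0.05 ± 0.19, adjusted p = 0.933). Plxna3 was at 20.4 and 21.1 CPM without LiECs, with 12.1, 32.1 and 33.5 CPM in co-culture, on both sides of them.

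None of the 3 plexin-B receptors was called. Plxnb1 was at 223.4 and 246.4 CPM without LiECs and lower in M9 and M10, at 167.2 and 180.8 CPM, but it was at 410.2 CPM in the third library. Its log2 fold change for M9 and M10 was -0.44 ± 0.15 (SE; adjusted p = 0.212, edgeR), and with all 5 libraries it was 0.11. Plxnb2 was at 1262 and 1308 CPM without LiECs and higher in M9 and M10, at 1541 and 1643 CPM, and at 1071 CPM in the third library (0.31 ± 0.14, adjusted p = 0.35). For both genes M9 and M10 stood on one side of the organoids alone and the third library on the other.

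**Figure D3:**
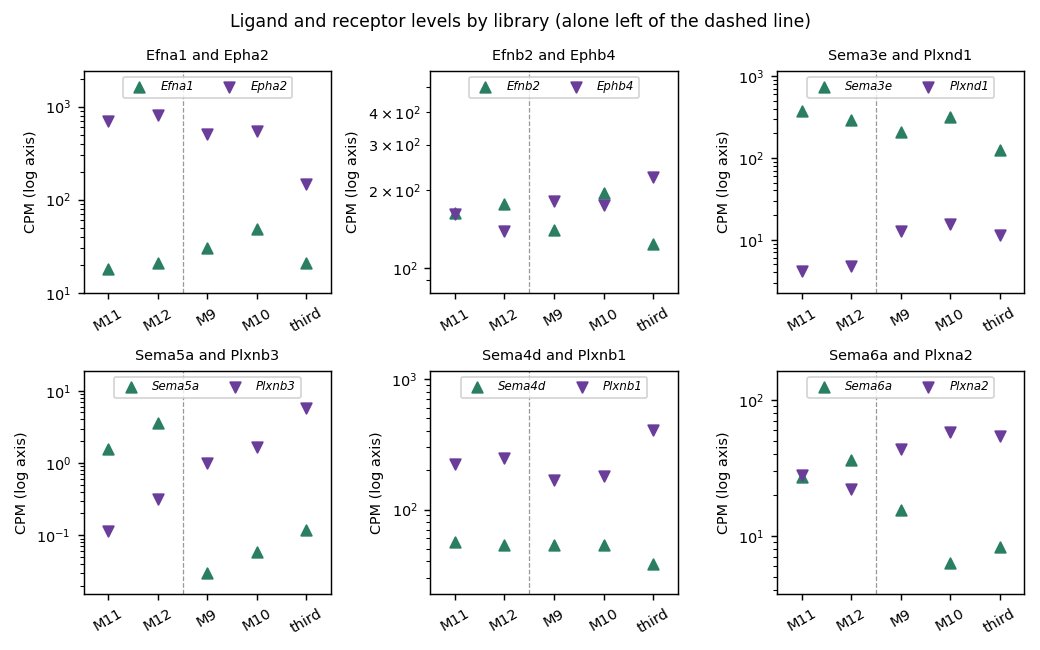
CPM on log axes for 6 ligand (green) and receptor (purple) pairs in each library, with organoids alone to the left of the dashed line and co-cultures to the right. Plxnd1, Plxnb3 and Plxna2 are higher in all co-culture libraries and Sema5a, Sema6a and Epha2 lower, while Plxnb1 is high only in the third of the co-cultures.

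Taking the third library with M9 and M10, 11 of the 41 genes had all 3 co-culture libraries above both libraries of organoids alone, against 15.1% of all genes in the 5-library set, and 5 had all 3 below, against 16.9%. As shares of the 41 these were 26.8% and 12.2%. The 11 were Efna1, Efna2, Efna3, Efna4, Efnb1, Ephb4, Plxna2, Plxnb3, Plxnd1, Sema4a and Sema4g, and the 5 were Efna5, Epha1, Epha2, Sema5a and Sema6a. By the third library's level alone, 18 of the 41 genes lay above the mean log2 level of the organoids alone and 23 below, with a median log2 difference of -0.26 against -0.01 over all genes. M11 and M12 are shared by both comparisons.

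**Figure D4:**
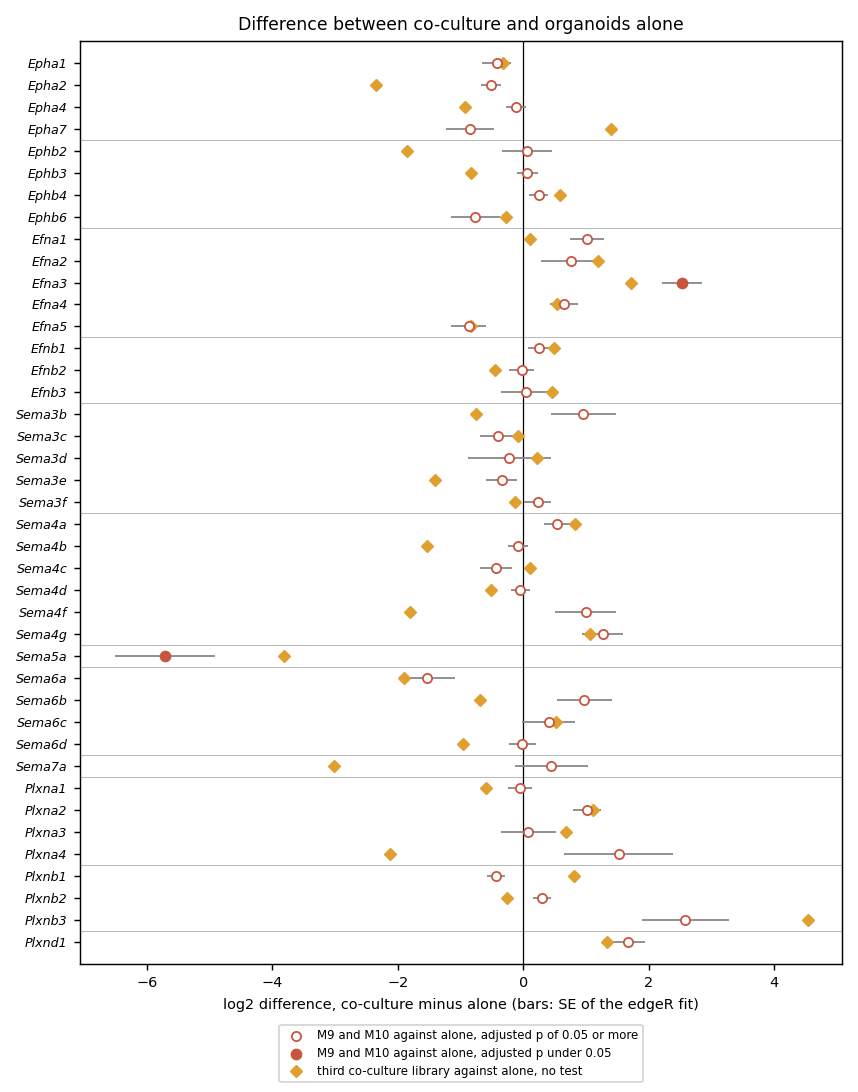
Log2 difference of co-culture minus organoids alone for the 41 tested genes: red circles give M9 and M10 with the standard error of the fit, filled for an adjusted p under 0.05, and yellow diamonds give the third co-culture library without a test. Only Efna3 and Sema5a are filled, and the diamonds of 13 genes, Epha7, Plxnb1 and Sema7a among them, lie on the other side of 0 from their circles.

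The neuropilins, co-receptors of class 3 semaphorins, had negative fold changes and were not called. Nrp2 was at 79.5 and 67.7 CPM without LiECs against 38.3, 38.8 and 27.3 CPM in co-culture, without overlap and with a log2 fold change for M9 and M10 of -0.93 ± 0.16 (SE; adjusted p = 0.0551, edgeR). Nrp1 was at 31.4 and 18.7 CPM without LiECs against 17.2, 5.16 and 8.09 CPM in co-culture (-1.16 ± 0.58, adjusted p = 0.389). They belong to a list of 54 co-receptors and cytoplasmic partners, of which 47 were tested. Of these, 2 were called higher and 2 lower, against 0.994% and 1.25% of all genes, and 5 were higher and 11 lower at an unadjusted p under 0.05. The median log2 fold change of the list was -0.22, against 0.00 over all genes. Vav2, an exchange factor for Rac that acts below Eph receptors, rose from 64.2 and 59.7 CPM to 117.6 CPM in M9 and 132.5 CPM in M10 (1.01 ± 0.15, adjusted p = 0.0371) and was at 113.2 CPM in the third library. Rnd2, a small GTPase that binds plexins, rose from 13.1 and 10.6 to 30.6 and 30.9 CPM (1.37 ± 0.22, adjusted p = 0.0425), but the third library, at 12.9 CPM, lay between the organoids alone.

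Those called lower were Grip1, a scaffold that binds ephrin-B tails, and Kalrn, an exchange factor that acts below EphB receptors. Grip1 fell from 2.58 and 3.13 to 0.365 and 0.415 CPM (log2 fold change -2.86 ± 0.47, SE; adjusted p = 0.0472, edgeR) and was at 1.31 CPM in the third library. Kalrn fell from 49.2 and 64.2 to 16.9 and 9.32 CPM (-2.11 ± 0.34, adjusted p = 0.0437), whereas the third library was at 53.4 CPM, between the organoids alone. Of 29 other guidance genes, the slits, Robo receptors, netrins and repulsive guidance molecules with their receptors and partners, 22 were tested. By edgeR 0 were called higher and 2 lower, against 0.994% and 1.25% of all genes, and 4 were higher and 5 lower at an unadjusted p under 0.05. Slit2, a secreted ligand of Robo receptors, fell from 26.3 and 23.9 to 8.26 and 9.68 CPM (-1.49 ± 0.22, adjusted p = 0.0374), and the third library was at 22.1 CPM. Ntng2, a membrane-anchored netrin relative, fell from 5.95 and 8.52 to 0.273 and 0.742 CPM (-3.83 ± 0.59, adjusted p = 0.0414) and was at 0.721 CPM in the third library. The median of that list was -0.17.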

How the data were processed

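Per the labels' protocols, rRNA was removed from total RNA before a strand-marking library preparation. Tools named without a role in the submitters' processing notes include StringTie 2.1.3b, HISAT2 2.1.0 and Trimmomatic 0.38, beside the builds mm10 and GRCh37. Counter, strand setting and annotation: not given in the sources used here. The authors deposited estimated counts per gene with Ensembl identifiers for 4 libraries, per the file headers, and whole-number counts by gene symbol for the third co-culture library. Their FPKM and TPM columns were not used. Repeated rows of a gene were identical and 1 was kept. Estimated counts were rounded; 6 of the genes described (Efna3, Efna4, Epha1, Plxna1, Plxnb1 and Sema4c) had counts that were not whole, so reads shared with other features may be split there. Columns name a group but no sample of it. The column of the third co-culture library carries another number than its sample record, which was followed. Its genes were matched by symbol (30844 genes, 97.7% of its counts).

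The 4 libraries were compared with edgeR 4.0.16 (R 4.3.3): filterByExpr, TMM, robust quasi-likelihood fit, Benjamini-Hochberg adjustment over all genes, tested on simulated data. In the simulated data, with changes placed in genes of higher counts, 34% of 2-fold and 86% of 4-fold changes were called. Of 171 calls 11 were false. A gene not called can therefore still differ by such an amount. Standard errors were derived from each log2 fold change and its F statistic. CPM are TMM-scaled over all 5 libraries, and log2 differences of the third library use a prior count of 2. Alternatives were other scalings, filters, DESeq2 1.42.0, limma-voom (limma 3.58.1), each library left out and all 5 libraries. Genes were described that were called, had an unadjusted p under 0.05 or were the 2 most abundant per length of their role, and up to 6 called genes of each partner list, with Nrp1 and Nrp2. The genes and lists were chosen with earlier results of these data known. Positions are from GENCODE M21 (GRCm38); promoter sequences are from RefSeq (GRCm38.p6), with windows for 45 of the 51 genes.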

Additional observations from a re-analysis of the deposited data

How the results depend on the processing

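Against 356 genes called in all, DESeq2 called 1329, edgeR without a low-count filter 1404 and edgeR with all 5 libraries 2, and fits that left out 1 library called between 0 (1438 at an unadjusted p under 0.05) and 2619. Genes of the described families called higher numbered 1, against 2 without a scaling factor, 2 with at least 1 CPM in 2 libraries, 5 without a low-count filter, 5 with DESeq2, 0 with all 5 libraries and 0 to 9 with 1 library left out. Those called lower numbered 1, against 2 without a low-count filter, 2 with DESeq2, 0 with limma-voom, 0 with all 5 libraries and 0 to 3 with 1 library left out. The cause was not tested. A fit with 1 library in an arm assumes that it varies like the other group. Of 26 genes followed over 11 alternatives, 8 changed sign in at least 1, and none of these 8 was called in the main comparison: Plxna3 was at -0.072 with limma-voom, and with all 5 libraries Ephb3 was at -0.18, Plxnb1 at 0.11 and Sema7a at -0.078. With 1 library left out, Plxna1 ranged from -0.23 to 0.16, Plxna3 from -0.77 to 0.63, Efnb2 from -0.27 to 0.20, Sema4b from -0.20 to 0.058, Epha4 from -0.24 to 0.012, Sema7a from -0.63 to 1.07 and Ephb3 from -0.036 to 0.17. The scalings moved the median of all genes by at most 0.04 on the log2 scale. The 10 untested genes, with at most 12 counts in a library, could not be compared at this depth. No paired analysis was possible because the columns carry no replicate number of the labels.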
